A study of Mus musculus with 6 samples.

Results

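Skeletal muscle is built and repaired under a small set of transcription factors, and their messenger RNA levels were followed here from late gestation to adulthood in the mouse gastrocnemius, the main calf muscle. The genes were taken by symbol and comprise 10 of the 23367 gene entries in the deposited table: Pax3 and Pax7, the myogenic regulatory factors (MRFs) Myf5, Myod1, Myog and Myf6, and Msc, Id1, Id2 and Id3, which encode proteins that restrain them. All mice were wild type and of the FVB strain, and no group was treated. The 6 libraries of polyA RNA were made at E18.5 (embryonic day 18.5, RNA of several embryos of both sexes pooled), PN2 (postnatal day 2, RNA of several male pups pooled), PN14 (replicates 1 and 2, males), PN28 (1 male) and adult (1 male of 22 weeks). Each PN14 library came from 1 mouse, so PN14 was the only stage with a measure of spread between animals.

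The MRFs are basic helix-loop-helix proteins. They pair with E proteins such as Tcf3, bind the short DNA motif called an E-box and switch on muscle genes. Pax3 and Pax7 act upstream of them: Pax3 is known for the muscle progenitors of the embryo, Pax7 for satellite cells, the stem cells of muscle. Myf5 and Myod1 commit cells to the muscle lineage, Myog (myogenin) drives their differentiation, and Myf6 (also called MRF4) is the member known to be abundant in mature fibres. The Id proteins have the helix-loop-helix but no DNA-binding basic region, and so tie up E proteins in inactive pairs. Musculin, the product of Msc, binds E-boxes as a repressor.

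The stretch that separates the MRFs from the Id proteins is the basic region, and its coding sequence is shown to let the 4 MRFs be compared with each other. The 48 bases lie in the first coding exon of each gene and were read from the GENCODE M1 transcripts of mm9. Capitals mark bases that differ from Myod1, and each line runs 5′ to 3′ along the gene.
Myod1: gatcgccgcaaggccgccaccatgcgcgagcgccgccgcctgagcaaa
Myf5: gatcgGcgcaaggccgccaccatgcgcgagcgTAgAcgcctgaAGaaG
Myog: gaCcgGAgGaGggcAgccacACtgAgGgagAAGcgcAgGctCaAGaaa
Myf6: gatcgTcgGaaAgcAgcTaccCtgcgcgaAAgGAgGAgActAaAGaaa

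The stretch covered codons 109 to 124 of Myod1 (chr7:53632367-53632414, plus strand), 83 to 98 of Myf5 (chr10:106922694-106922741, minus strand), 81 to 96 of Myog (chr1:136186873-136186920, plus strand) and 93 to 108 of Myf6 (chr10:106931437-106931484, minus strand). Myf5 differed from Myod1 at 7 of the 48 bases, Myf6 at 16 and Myog at 18. In the best ungapped window of 55 codons, the 6 pairs of MRFs shared 69.7% to 80.6% of their bases and the 3 pairs of Id genes shared 61.8% to 73.9%. An MRF and an Id gene shared at most 47.3%. Pairs of Msc with an MRF or an Id gene shared 42.4% to 50.3%.

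The promoter of Myog is shown because Myog had the widest range of levels among the 10 genes. The RefSeq promoter table (GRCm38.p6) held 5 of them (Pax7, Myf5, Myog, Id2 and Id3) and did not list Pax3, Myod1, Myf6, Msc and Id1. The 250 bases before the start of Myog were found once in the mm9 genome, at chr1:136186331-136186580 on the plus strand. Capitals mark matches to CANNTG, the E-box, and to TCAGGTTTC, the MEF3 motif, searched on both strands; the motifs do not overlap here.
Myog: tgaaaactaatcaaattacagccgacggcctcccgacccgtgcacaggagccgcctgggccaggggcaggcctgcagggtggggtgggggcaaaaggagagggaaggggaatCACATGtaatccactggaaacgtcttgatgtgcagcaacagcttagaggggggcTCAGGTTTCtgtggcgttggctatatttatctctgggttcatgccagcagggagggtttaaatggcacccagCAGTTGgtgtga

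The E-box letters occurred at 138 to 133 and at 12 to 7 bases before the Myog start, and the MEF3 letters at 84 to 76 bases. Of the 32851 promoters in the table, 66.2% held CANNTG within the same 250 bases and 0.387% held TCAGGTTTC. Id2 had 1 match to CANNTG, which was also its 1 match to CAGCTG, at 196 to 191 bases before its start. CAGCTG is an E-box that MRFs are known to bind and occurred in 13.0% of the promoters. No match to these letters was present in the windows of Pax7, Myf5 and Id3.

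Depth ranged from 125402932 to 157868359 counts on genes per library. The expected counts were scaled between libraries by edgeR's TMM method and tested with its quasi-likelihood test in 1 fit of all 6 libraries, over 16882 genes. To be called, a gene needed an adjusted p under 0.05 (Benjamini-Hochberg over the 16882 genes) and at least a 2-fold difference. Only the PN14 pair informed the spread, with 1 residual degree of freedom, and the stages with 1 library were taken to have the same spread. FPKM values are scaled to gene length and library size only, and relative to TMM they run low in the older libraries: scaled by library size alone, the middle gene had a log2 fold change of -0.66 between PN2 and PN14 and -1.08 between E18.5 and adult, against -0.01 and -0.05 with TMM. FPKM is used here for levels and for ratios within a library, which no scaling between libraries can alter. Schwann cell markers (6 genes) summed to 322 FPKM in PN14 replicate 1 and 1180 in replicate 2, and 7 proliferation genes to 38.4 and 66.3. Myofibre markers (8 genes) were abundant in every library, from 20800 FPKM in sum at E18.5 to 113000 at PN28.

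The levels of Pax7, Myf5, Myog, Msc and Id2 declined with age, by 8.79-fold to 48.3-fold in FPKM between the highest and lowest library, while Myod1, Myf6, Id1 and Id3 spanned 2.04-fold to 3.68-fold. Between E18.5 and adult, 6 of the 10 were called, which were Pax7, Myf5, Myog, Msc and Id2 falling and Myf6 rising. All 10 passed the filter on low counts, and 44.9% of all genes tested were called in this comparison. The 5 that fell compare with 23.6% of all genes called lower. Under library size alone 8 of the 10 were called, all lower, against 45.6% of all genes called lower and 7.98% higher (21.4% higher with TMM): Myod1, Id1 and Id3 joined the 5, and Myf6 was not called. The median log2 fold change over the 10 genes was -1.35, against -0.05 over all genes tested. In bulk tissue, fewer cells of a type and less RNA per cell cannot be told apart.

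**Figure D1:**
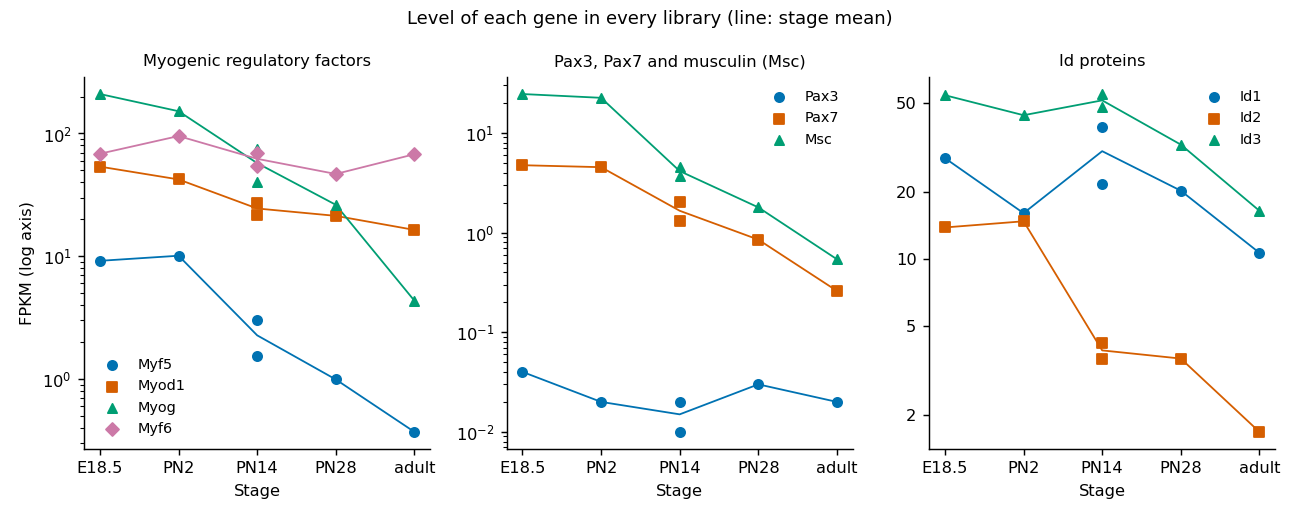
FPKM (log axis) of each gene in all 6 libraries, 1 point per library, with lines through the stage means and both PN14 replicates shown. Myog drops from 209.74 at E18.5 to 4.34 in the adult while Myf6 stays between 46.79 and 95.35.

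Pax3 (chromosome 1 of mm9, 78097842 to 78193709) was close to the limit of detection. It had 24 counts before birth (E18.5), 11 on PN2, 5 and 8 in the PN14 mice, 13 on PN28 and 11 in adulthood, or at most 0.04 FPKM. Pax3 was the lowest of the 10 genes in every library. No comparison of Pax3 was called, and its log2 fold change from E18.5 to adult was 0.05 (standard error 0.742).

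Pax7 (chromosome 4, 139292977 to 139389445) had 4.74 FPKM before birth (E18.5), 4.53 on PN2, 1.30 and 2.01 in the PN14 mice, 0.85 on PN28 and 0.26 in adulthood. Its level was lower at each stage than at the stage before. The PN14 values did not overlap with those of any other stage. Pax7 fell from E18.5 to adult (log2 fold change -3.14, standard error 0.32; edgeR adjusted p = 0.0015). With TMM no single interval reached the threshold: from PN2 to PN14 the log2 fold change was -0.82 (edgeR adjusted p = 0.0508), and from PN28 to adult it was -1.56 (edgeR adjusted p = 0.0821). Both were called with library size alone, at -1.45 and -1.70.

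Of 9 other satellite cell markers, 6 fell from E18.5 to adult and 0 rose, with a median log2 fold change of -2.06. Over all genes tested, 23.6% were called lower and 21.4% higher in this comparison. From PN2 to PN14, 2 fell: Cdh15, the adhesion protein M-cadherin, at -1.22, and Fgfr4, a fibroblast growth factor receptor, at -1.19. Over that interval 11.2% of all genes were called lower. With library size alone 5 of the 9 fell, against 29.4% of all genes. Fgfr4 went from 30.51 FPKM at E18.5 to 0.73 in the adult. The markers not called from E18.5 to adult were Spry1, Sdc4 and Chrdl2, with log2 fold changes of -0.62, 0.28 and -0.07.

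Myf5 (chromosome 10, 106919964 to 106923190) had 9.17 FPKM before birth (E18.5), 10.09 on PN2, 1.53 and 3.0 in the PN14 mice, 0.99 on PN28 and 0.37 in adulthood. It was high in both perinatal libraries and lower in all later ones, without overlap. Myf5 fell from PN2 to PN14 (log2 fold change -1.53, standard error 0.324; edgeR adjusted p = 0.0203), and the value was -1.93 with replicate 1 as the only PN14 library and -1.22 with replicate 2. From E18.5 to adult it fell 12.1-fold. The ratio of Myf5 to Pax7 FPKM within a library stayed between 1.16 and 2.23.

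Myod1 (chromosome 7, 53631844 to 53634462) was among the steadier members. It had 53.7 FPKM before birth (E18.5), 42.24 on PN2, 21.79 and 27.18 in the PN14 mice, 21.32 on PN28 and 16.38 in adulthood. On the TMM scale these stages lay between 41.4 and 66.6 normalized CPM (counts scaled to effective library size), highest at E18.5 and lowest in the adult. The log2 fold change from E18.5 to adult was -0.69 (standard error 0.199; edgeR adjusted p = 0.0298), short of the fold required for a call. With library size alone it was -1.71 and was called.

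Myog (chromosome 1, 136186581 to 136189124) was the most abundant member before birth and showed the largest decline. It had 209.74 FPKM before birth (E18.5), 151.9 on PN2, 40.58 and 74.12 in the PN14 mice, 26.24 on PN28 and 4.34 in adulthood. Its highest and lowest libraries differed 48.3-fold, and every stage lay below the previous one without overlap. Myog fell from E18.5 to adult (log2 fold change -4.57, standard error 0.388; edgeR adjusted p = 0.00124).

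The decline of Myog was spread over the whole series. The log2 fold changes of the 4 intervals in order were -0.46, -0.78, -0.87 and -2.46, and none of them was called on its own. The last, from PN28 to adult, was the largest (standard error 0.355; edgeR adjusted p = 0.0534). With library size alone each interval after PN2 was called.

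Myf6 (chromosome 10, 106929916 to 106931785) kept its level in FPKM. It had 68.42 FPKM before birth (E18.5), 95.35 on PN2, 54.67 and 69.68 in the PN14 mice, 46.79 on PN28 and 67.78 in adulthood. The adult FPKM lay inside the range of the PN14 pair. On the TMM scale the adult, at 114 normalized CPM, lay above both PN14 mice, at 77.8 and 82.8. Relative to the other genes of the library Myf6 rose from E18.5 to adult, from 56.3 to 114 normalized CPM (log2 fold change 1.01, standard error 0.215; edgeR adjusted p = 0.0106). This call sat at the fold threshold and depended on the scaling, since the log2 fold change was -0.01 with library size alone and fell just short of 1 with DESeq2's size factors.

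Myf5 and Myf6 are neighbours on chromosome 10, on the same strand, with 6725 bases between them, and their levels separated with age. The FPKM of Myf6 was 7.46 times that of Myf5 before birth (E18.5), 9.45 on PN2, 35.7 and 23.2 in the PN14 mice, 47.3 on PN28 and 183 in adulthood. This ratio was higher at each successive stage, and the PN14 pair differed from each other by less than either differed from PN2 or from the adult on a log scale. On that scale the step from PN14 replicate 1 to PN28 was smaller than the gap between the pair.

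The make-up of the MRFs shifted from Myog to Myf6. Of the summed FPKM of the 4 genes, Myog held 61.5% before birth (E18.5), 50.7% on PN2, 34.2% and 42.6% in the PN14 mice, 27.5% on PN28 and 4.88% in adulthood. The share of Myf6 ran the other way, from 20.1% at E18.5 and 31.8% at PN2 through 46.1% and 40.1% at PN14 to 49.1% at PN28 and 76.3% in the adult. Myod1 held between 14.1% and 22.4% in every library, and Myf5 at most 3.37%.

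The ratio of Myf6 to Myog was 0.326 before birth (E18.5), 0.628 on PN2, 1.35 and 0.940 in the PN14 mice, 1.78 on PN28 and 15.6 in adulthood. Both PN14 values lay between those of PN2 and PN28. The ratio of Myod1 to Myog went from 0.256 at E18.5 to 0.813 at PN28 and 3.77 in the adult. The summed FPKM of the 4 MRFs was 341 before birth (E18.5), 300 on PN2, 119 and 174 in the PN14 mice, 95.3 on PN28 and 88.9 in adulthood.

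**Figure D2:**
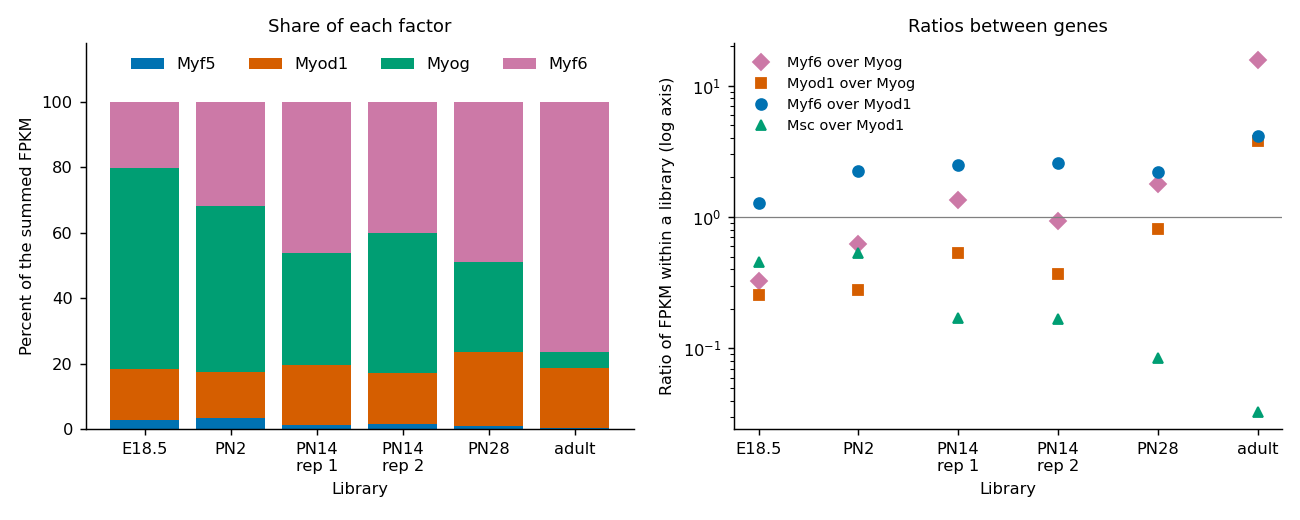
Left, percent of the summed FPKM of Myf5, Myod1, Myog and Myf6 held by each gene in every library. Right, ratios of FPKM between genes within each library (log axis, grey line at 1). Myf6 over Myog passes from 0.326 at E18.5 to 15.6 in the adult, and Msc over Myod1 from 0.457 to 0.033.

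Msc (chromosome 1, 14743427 to 14746047) declined nearly as far as Myog. It had 24.55 FPKM before birth (E18.5), 22.49 on PN2, 3.72 and 4.56 in the PN14 mice, 1.79 on PN28 and 0.54 in adulthood. The perinatal libraries were alike and the later stages stepped down without overlap. Msc fell from PN2 to PN14 (log2 fold change -1.79, standard error 0.18; edgeR adjusted p = 0.00458), and the PN14 pair differed by 0.03 on the same scale. From E18.5 to adult it fell 22.4-fold. Set against Myod1, whose E-boxes musculin can occupy, its FPKM was 0.457 of Myod1's before birth (E18.5), 0.532 on PN2, 0.171 and 0.168 in the PN14 mice, 0.084 on PN28 and 0.033 in adulthood.

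The 3 Id genes did not move together. Id2 (chromosome 12, 25778666 to 25780957) had 13.85 FPKM before birth (E18.5), 14.76 on PN2, 3.57 and 4.22 in the PN14 mice, 3.58 on PN28 and 1.68 in adulthood. It was high in the perinatal libraries, and the PN28 FPKM fell within the PN14 pair. On the TMM scale PN28, at 5.56 normalized CPM, lay just above the pair, at 5.19 and 5.11. Id2 fell from PN2 to PN14 (log2 fold change -1.27, standard error 0.213; edgeR adjusted p = 0.0114) and fell from E18.5 to adult at -2.01 (standard error 0.266; edgeR adjusted p = 0.0025).

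Id1 (chromosome 2, 152561987 to 152563146) had 28.31 FPKM before birth (E18.5), 16.05 on PN2, 39.19 and 21.66 in the PN14 mice, 20.24 on PN28 and 10.66 in adulthood. Its PN14 libraries were the least alike of any member, with 0.462 times as much normalized CPM in replicate 2 as in replicate 1. Id1 rose from PN2 to PN14 (log2 fold change 1.62, standard error 0.464; edgeR adjusted p = 0.0451). The value was 0.96 with replicate 2 as the only PN14 library and 2.08 with replicate 1. The call was kept with DESeq2's size factors and lost with library size alone, at 0.92, and with a filter of a mean of at least 1 CPM. Btg2, an immediate early gene, also rose from PN2 to PN14 (log2 fold change 1.43, not called with library size alone) and had 20.67 and 13.22 FPKM in PN14 replicates 1 and 2. Of the 7 other immediate early genes none was called, with values from -0.63 for Egr1 to 0.97 for Atf3. The 8 genes summed to 106 FPKM at PN2 and to 101 and 70.4 in the PN14 libraries, and their part in the Id1 values was not tested.

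Id3 (chromosome 4, 135699412 to 135701670) was the most abundant Id gene in every library. It had 54.2 FPKM before birth (E18.5), 44.09 on PN2, 47.94 and 54.87 in the PN14 mice, 32.56 on PN28 and 16.45 in adulthood. In FPKM the E18.5 value lay between the PN14 replicates, which were both higher than PN2. On the TMM scale E18.5, at 33.5 normalized CPM, lay below both replicates, at 51.3 and 49.1. The log2 fold change from PN2 to PN14 was 0.88 (standard error 0.175; edgeR adjusted p = 0.0172), below the fold for a call, and 0.22 with library size alone. From E18.5 to adult it was -0.69 (standard error 0.195; edgeR adjusted p = 0.027), also below that fold. Id3 was called with library size alone, at -1.72, and so was Id1, at -1.41 against -0.38 with TMM.

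Because of these different courses, the share of Id2 in the summed FPKM of the 3 Id genes was 14.4% at E18.5 and 19.7% at PN2 but 3.94% and 5.23% in the PN14 mice, 6.35% on PN28 and 5.84% in adulthood. The ratio of Id3 to Id2 was 3.91 and 2.99 in the perinatal libraries and between 9.09 and 13.4 later. The 3 Id genes summed to 0.283 of the MRF sum before birth (E18.5), 0.250 on PN2, 0.765 and 0.464 in the PN14 mice, 0.591 on PN28 and 0.324 in adulthood. This ratio was thus higher at PN14 and PN28 than at either end, with a wide gap between the PN14 mice.

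Endothelial cells are known to express Id1 and Id3. From PN2 to PN14, 4 of 8 endothelial markers also rose, against 11.8% of all genes called higher. They were Esam, Egfl7, Emcn and Tie1, with log2 fold changes of 1.03 to 1.29. With library size alone 0 of the 8 were called, against 5.06% of all genes called higher. Summed endothelial FPKM was 253 at PN2, 256 and 377 in the PN14 mice, 184 on PN28 and 102 in adulthood. PN14 replicate 2 had the higher endothelial sum and the lower Id1. Its Id3 was higher in FPKM (54.87 against 47.94) but lower in normalized CPM (49.1 against 51.3). The 8 fibroblast markers summed to 6200 FPKM before birth (E18.5), 5110 on PN2, 1790 and 2130 in the PN14 mice, 1930 on PN28 and 549 in adulthood. At E18.5 most of this sum was Col1a1, Col1a2 and Col3a1, at 2046.41, 1674.61 and 1829.26 FPKM. From PN2 to PN14 only Thy1 of the 8 was called with TMM, higher at 2.36. With library size alone 1 was called higher and 5 lower, against 5.06% and 29.4% of all genes. The part of endothelial cells and fibroblasts in the Id values was not tested.

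Among the 4 intervals, PN2 to PN14 was the only one with a call by this test, and 4 of the 10 genes were called in it (Myf5, Msc and Id2 lower, Id1 higher) against 23.0% of all genes tested. The 3 lower calls compare with 11.2% of all genes. Under library size alone 5 were called, all lower (Pax7 and Myog in, Id1 out), against 29.4% of all genes called lower and 5.06% higher (11.8% higher with TMM). Counted without a test, from log2 of normalized CPM plus 0.1 and among genes with at least 1 CPM at either stage, the same 4 genes differed at least 2-fold, against 26.9% of all genes. Pax3 was below 1 CPM throughout, which left 9 of the 10. The 2-fold count was 3 with PN14 replicate 1 left out (Id1 was no longer among them) and 6 with replicate 2 left out (Pax7 and Myog joined).

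Between E18.5 and PN2, 0 of the 10 were called and 0 differed at least 2-fold, against 0.0296% and 3.44% of all genes. An unadjusted p under 0.05 was reached by 0 of the 10, against 6.64% of all genes. The exact test of edgeR and the Wald test of DESeq2 likewise called 0. The largest log2 fold changes of this interval were those of Pax3, at -1.10 on 24 and 11 counts, and Id1, at -0.82.

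Between PN14 and PN28 none of the genes was called by the quasi-likelihood and exact tests of edgeR or the Wald test of DESeq2, against 0.0178% of all genes called by the first, and 5 had an unadjusted p under 0.05 (Pax7, Myf5, Myog, Msc and Id3), against 8.41% of all genes. The log2 fold changes of Msc, Myf5 and Myog were -0.97, -0.93 and -0.87. In the untested count 0 differed at least 2-fold, against 3.35% of all genes, but with PN14 replicate 1 left out Myf5 and Myog did. With library size alone Myog was called, against 1.55% of all genes.

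In the last interval, from PN28 to adult, 9 of the 10 genes had a lower normalized level in the adult, and Myf6 was the exception with a log2 fold change of 0.67. None was called, against 0.521% of all genes, while 7 had an unadjusted p under 0.05, against 18.3% of all genes. Pax7, Myog and Msc were called with the Wald test (DESeq2), with the exact test (edgeR), under library size and without the filter on low counts. Under library size 5.14% of all genes were called, and the share was not counted for the other settings. In the untested count, Pax7, Myf5, Myog and Msc differed at least 2-fold, all lower in the adult, against 10.2% of all genes. For E18.5 and adult that count gave 6 of the 9 genes, the same as were called, against 49.6% of all genes.

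**Figure D3:**
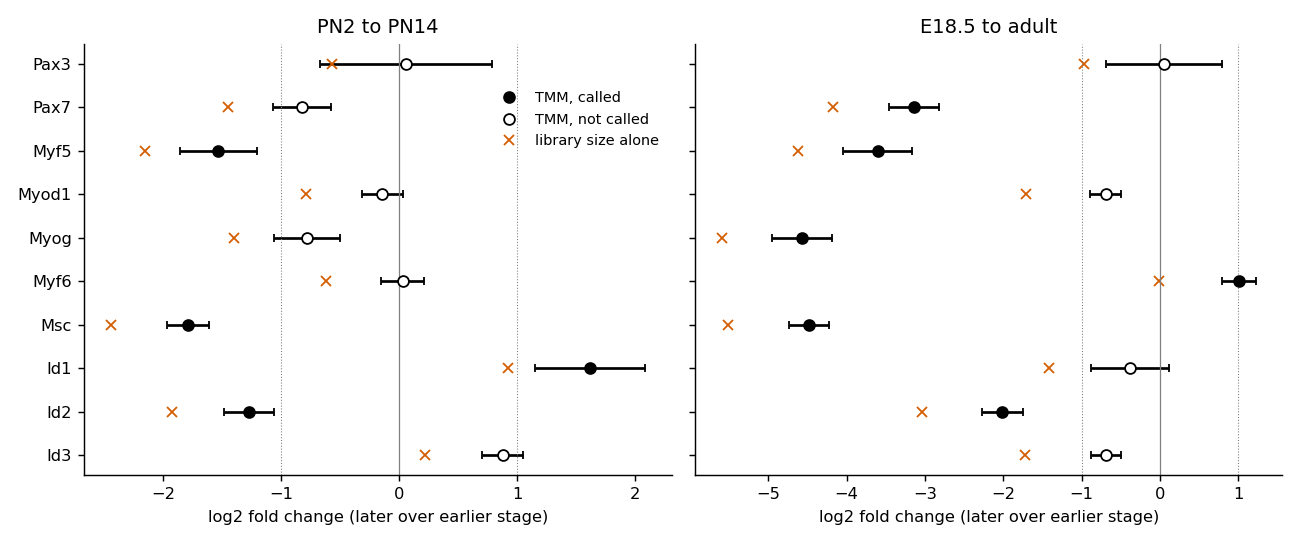
log2 fold change of each gene from PN2 to PN14 (left) and from E18.5 to adult (right). Circles give the TMM fit with 1 standard error (filled, called), crosses the value with library size alone, and dotted lines mark 2-fold. Myog, Msc, Myf5 and Pax7 lie far below 0 on the right under both scalings, whereas Myf6 is at 1.01 with TMM and -0.01 with library size.

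The PN14 mice differed in Myf5, Myog, Pax7 and Id1 more than in the other members with measurable levels. Replicate 2 had 1.64 times as much normalized Myf5 as replicate 1, 1.53 times as much Myog and 1.30 times as much Pax7, but 1.04 times as much Myod1, 1.06 times as much Myf6 and 1.02 times as much Msc. Proliferation genes stood apart in the same direction, for example Mki67 at 2.16 and 5.76 FPKM. Schwann cell markers differed too (322 and 1180 FPKM in sum), and the part of either list in these differences was not tested. Across all genes with at least 1 CPM, 2.74% differed at least 2-fold between these mice, and Id1 was the only one of the 10 that did, in the opposite direction.

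Proliferation genes fell together with Pax7, Myf5 and Myog over the series. All 7 were called lower from E18.5 to adult, and 6 of them from PN2 to PN14, against 23.6% and 11.2% of all genes. Top2a, which untangles replicating DNA, had 37.0 FPKM before birth (E18.5), 24.54 on PN2, 2.99 and 7.11 in the PN14 mice, 3.27 on PN28 and 0.10 in adulthood.

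The partners of the MRFs followed different courses. The 3 E proteins Tcf3, Tcf4 and Tcf12 pair with both MRFs and Id proteins. All 3 fell from E18.5 to adult (log2 fold changes -1.60, -1.09 and -1.55), against 23.6% of all genes called lower. Tcf12 had 43.89 FPKM at E18.5 and 7.06 in the adult. From PN2 to PN14 none of them was called, at -0.81, -0.15 and -0.98, while with library size alone Tcf3 and Tcf12 were, at -1.44 and -1.62. The MEF2 factors act with the MRFs on muscle promoters. From E18.5 to adult 3 of 4 were called higher (Mef2a, Mef2b and Mef2d), against 21.4% of all genes. With library size alone 0 were called, against 7.98% of all genes called higher. Mef2a and Mef2d, at 1.05 and 1.04, sat near the fold threshold, and Mef2b did not exceed 0.52 FPKM in any library. Mef2c, the most abundant, had between 79.51 and 141.95 FPKM.

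Among 11 other inhibitors of MRF activity, 6 fell and 2 rose from E18.5 to adult, against 23.6% and 21.4% of all genes. With library size alone 9 fell and 1 rose, against 45.6% and 7.98% of all genes. Twist1, a repressor known from mesenchyme, fell from PN2 to PN14 at a log2 fold change of -1.42, from 7.99 FPKM to 1.73 and 2.06. Mdfi, which holds MRFs outside the nucleus, fell over the same interval at -1.14 and reached 0.24 FPKM in the adult from 10.39 at E18.5. Bhlhe41, a repressor that is also an output of the circadian clock, rose from PN2 to PN14 at 3.23, from 0.99 to 6.26 and 5.44 FPKM. The clock gene Dbp rose too, from 6.33 to 28.6 and 13.26 FPKM, and the time of day of dissection is not given in the sources used here.

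Of 12 upstream regulators of MRF genes, 11 were tested. From PN2 to PN14, Lbx1, Eya1 and Six4 rose with log2 fold changes of 1.82, 1.27 and 1.13, and Eya2 fell at -1.32. Over all genes 11.8% were called higher and 11.2% lower in this interval. Lbx1, a homeobox gene of migrating limb muscle precursors, had 11.34 FPKM at E18.5 and 38.63 in the adult, and its rise and the fall of Eya2 were also called with library size alone, unlike Eya1 and Six4.

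Target genes of the MRFs mostly declined. Of 17, 9 fell and 1 rose from PN2 to PN14, with a median log2 fold change of -1.22. Among all genes 11.2% were called lower and 11.8% higher. With library size alone 12 fell and 1 rose, which was then Ckm, against 29.4% of all genes lower and 5.06% higher. The summed FPKM of the 17 was 11200 at PN2 and 20500 and 15700 in the PN14 mice. Myh8 and Myh3, the neonatal and embryonic myosin heavy chains, fell at -7.10 and -4.16, and Chrng, the fetal subunit of the acetylcholine receptor, at -4.69. Cdkn1a, the cell cycle inhibitor p21, fell at -2.75, from 183.54 FPKM at PN2 to 14 and 21.03. Mybph, a myosin binding protein, was the gene that rose, at 1.56, and was not called with library size alone. Tmem8c, which encodes the fusion protein myomaker, had 113.76 FPKM before birth (E18.5), 104.19 on PN2, 7.1 and 16.39 in the PN14 mice, 5.98 on PN28 and 0.21 in adulthood. Ckm, the muscle creatine kinase and a classical target, had 4189.28 FPKM at PN2 and 18754.59 and 13972.75 at PN14, with a log2 fold change of 2.65 that was not called with TMM.

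Components of bone morphogenetic protein (BMP) signalling, which induces Id genes, were called in 5 of 19 cases from PN2 to PN14, all lower, against 23.0% of all genes called and 11.2% called lower, and in 9 with library size alone, against 29.4% of all genes called lower. They were the ligand Bmp7 (log2 fold change -1.77), the receptor Bmpr1b (-1.71), the transducer Smad9 (-1.55) and the secreted antagonists Nog (-1.26) and Grem1 (-5.18). Smad9 did not exceed 0.25 FPKM and Grem1 1.13 FPKM in any library. Smad1 and Smad5, which carry most of the signal, were at -0.52 and -0.26 and not called, though Smad1 was called with library size alone.

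**Figure D4:**
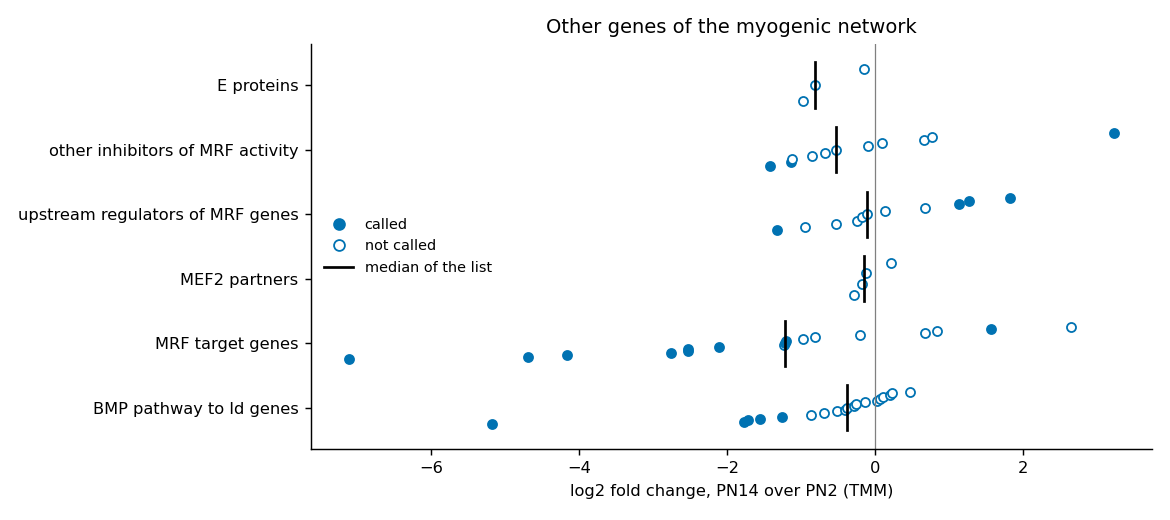
log2 fold change from PN2 to PN14 (TMM) of the genes in 6 lists of the myogenic network, 1 circle per gene, filled where called, with a bar at the list's median. MRF target genes reach from -7.10 for Myh8 to 2.65 for Ckm, while the 4 MEF2 genes stay between -0.29 and 0.21.

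The genes most like Pax7, Myod1, Myog, Myf6, Id1 and Id2 in shape were found by the Pearson correlation of log2 normalized CPM over the 6 libraries, among 7785 genes with a mean of at least 5 FPKM. The libraries share their depth and scaling, and 6 points leave many genes with near-identical curves, so the values are descriptive. Pax7 was closest to Gjc1, Anks1 and Evl (r = 0.9997, 0.9991 and 0.9990), and 69 genes exceeded 0.99. Gjc1, a gap junction gene, had 20.56 FPKM at E18.5 and 1.98 in the adult. For Myog the nearest were Sh3bgrl3, Ankmy2 and Tceal8 (r = 0.9987, 0.9985 and 0.9985), all with a smaller range than Myog itself.

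Id2 lay closest to Smim5, Fn1 and Dnm1 (r = 0.9947, 0.9941 and 0.9939), of which Fn1, fibronectin, went from 206.19 FPKM at E18.5 to 11.45 in the adult. Myod1 had 1 gene above 0.99, Stab1 (r = 0.9906), followed by Ssna1 and Plod3 (r = 0.9854 and 0.9851). Myf6 was nearest to Tmem127, the clock gene Cry2 and Patl1 (r = 0.9835, 0.9828 and 0.9713). Id1 was nearest to Surf4, Btg2 and Lrrc8a (r = 0.9642, 0.9581 and 0.9547). Neither Myf6 nor Id1 had any gene above 0.99.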

How the data were processed

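Polyadenylated RNA from 6 gastrocnemius samples was sequenced. Paired-end reads had been placed on mm9 by the authors using TopHat2 2.0.5, and RSEM gave the deposited expected count and FPKM of each RefSeq gene model. The expected counts are whole numbers without normalization. The deposited FPKM values are scaled to gene length and library size. Of the 23367 entries, 2 repeat a symbol, none of them a gene reported here. Strand was not stated in the sources used.

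Counts were fitted in R 4.3.3 with edgeR 4.0.16 (TMM, filterByExpr by stage, quasi-likelihood test), giving 0.188 as the shared biological coefficient of variation, and 4.86 prior degrees of freedom. Comparisons were the 4 consecutive intervals and E18.5 with adult. P-values measure the spread of the PN14 pair only. Each library came from its own sequencing lane per the file headers, and E18.5 was the only stage with both sexes; neither can be told apart from stage. The procedure was tested on simulated data.

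Alternatives were library size alone, DESeq2's size factors, DESeq2's Wald test (1.42.0), edgeR's exact test, other filters and pseudocounts, and either PN14 replicate left out. Coordinates and coding sequences came from GENCODE M1 (mm9). All 140 genes of the 16 lists were in the table. Named genes were the 10 members; in each list, up to 4 called from PN2 to PN14 with the largest fold and at least 1 FPKM in a library, or the 2 most abundant; and the 3 nearest in pattern. Other list genes are named after their values were seen. The members and lists were chosen with earlier results of these data known. Tables and figures used Python 3.11.15, numpy 2.4.6, pandas 2.3.3 and matplotlib 3.10.9. The result of 1 list gene is not reported here.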

Additional observations from a re-analysis of the deposited data

How the results depend on the processing

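Scaling was the choice that mattered most. With library size alone, the count of the 10 genes called was 1 in place of 0 from PN14 to PN28 and 3 in place of 0 from PN28 to adult, and the count at least 2-fold apart from PN14 to PN28 was 3 in place of 0. The share of all genes called rose too, from 0.0178% to 1.55% for PN14 to PN28 and from 0.521% to 5.14% for PN28 to adult. For PN28 to adult, DESeq2's Wald test, edgeR's exact test and the fit without a filter each called 3 as well. The share of all genes called was not counted for these settings. With either PN14 replicate left out, the 2-fold count from PN14 to PN28 ranged from 0 to 2. The other 42 recounts stayed within 1.5 times the reported count. For single genes, 6 log2 fold changes changed sign with library size alone, none of them called with that scaling: Pax3 at -0.57 from PN2 to PN14 and -0.97 from E18.5 to adult, Myod1 at -0.20 and Id2 at -0.12 from PN14 to PN28, and Myf6 at -0.62 from PN2 to PN14 and -0.01 from E18.5 to adult. Myf6, called from E18.5 to adult with TMM, lost that call also with DESeq2's size factors or Wald test, without a filter and with a minimum mean of 1 CPM, which also ended the call of Id1 from PN2 to PN14. Without PN14 replicate 1, Id1 was at 0.26 from PN14 to PN28 against -0.40 with both, and without replicate 2 Myf6 was at -0.01 from PN2 to PN14 against 0.03. No paired analysis was possible because PN14 alone has 2 libraries. A count of 3 corresponds to 0.019 to 0.0239 CPM, so depth limited Pax3 only.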

Other observations

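The other lists, mostly markers of cell types, gave different counts of calls, and many of these counts depended on the scaling. All genes tested gave 21.4% higher and 23.6% lower from E18.5 to adult with TMM, and 7.98% and 45.6% with library size alone. From E18.5 to adult, 5 of 6 adipocyte markers rose and 0 fell with TMM (4 and 0 with library size alone). Of 8 fibroblast markers 1 rose and 5 fell (0 and 6), of 6 Schwann cell markers 2 rose and 0 fell (2 and 2), and of 6 macrophage markers 1 rose and 2 fell (0 and 4). Of 8 endothelial markers 0 were called with TMM and 6 fell with library size alone. Myofibre markers gave 4 of 8 higher and 0 lower with TMM, and 8 and 0 with library size alone. Of 10 clock genes 5 rose and 1 fell under both scalings, and of 8 immediate early genes 4 fell (6).

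From PN2 to PN14, 3 of the myofibre markers rose and 0 fell with TMM, against 7 and 0 with library size alone. All genes tested gave 11.8% higher and 11.2% lower with TMM, and 5.06% and 29.4% with library size alone. Clock genes gave 4 higher and 0 lower (1 and 1), and immediate early genes 1 and 0 (0 and 1). Adipocyte markers gave 1 higher and 2 lower (0 and 3) and fibroblast markers 1 and 0 (1 and 5). No Schwann cell or macrophage marker was called with TMM, while with library size alone 2 of each fell. The 10 clock genes summed to 75.8 FPKM at E18.5 and 275 in the adult library.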
